A study of Sus scrofa with 12 samples.

Results

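The genes described here are 60 splicing and RNA-binding factors of the pig, measured in skeletal muscle over the first 3 weeks after birth. They are all genes whose symbol in the array's annotation begins with HNRNP, SNRP, SF3A, SF3B, SRSF, LSM or PRPF, out of 6765 genes that the annotation names. Of the 60, 17 encode heterogeneous nuclear ribonucleoproteins (hnRNPs), 10 encode proteins of the small nuclear ribonucleoproteins (SNRP), 7 encode subunits of splicing factor 3 (SF3), 11 encode serine/arginine-rich (SR) proteins, 6 are LSM genes and 9 are PRPF genes. Together they are covered by 95 probe sets, and each gene is represented by its probe set with the highest mean log2 signal over all arrays. In all, 59 genes were bright enough to test, and SRSF12 was not. Its signals were 51.5, 51.4 and 79.8 at day 0, 110.7, 98.4 and 119.9 at day 7, 58.8, 30.7 and 92.7 at day 14, and 96.8, 9.5 and 17.2 at day 21.

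The series holds 12 Affymetrix expression arrays of whole skeletal muscle from piglets of 4 ages. The ages are day 0 (the first day of life), day 7, day 14 and day 21, each with 3 arrays described as biological replicates. No treatment or genetic change is described. The breed, the sex, the litter and the muscle that was sampled are not given in the sources used here.

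Splicing removes introns from pre-mRNA and is carried out by the spliceosome, which is assembled on each intron from small nuclear ribonucleoproteins (snRNPs), each a small RNA wrapped in a ring of Sm or LSm proteins and joined by specific subunits. SR proteins and hnRNPs bind the pre-mRNA itself, SR proteins mostly promoting and hnRNPs often opposing the use of nearby exons, and their balance helps to set which exons are kept. In skeletal muscle, transcripts of contractile and calcium-handling proteins are known to switch exons around and after birth.

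The files hold 1 summarised signal per probe set and array, on a linear intensity scale on which every array has a trimmed mean of 500.1. Median signals ran from 145.4 to 160.6 at day 0 and from 160.7 to 171.7 at the later ages. Of the 16 muscle markers, 14 were tested, and their summed signal was 316600 to 438400 at day 0 and 443600 to 631300 later, so the labelled tissue showed its defining transcripts on every array. In whole tissue, fewer cells of a type and less RNA per cell cannot be told apart. The day 0 arrays also differed from the later ones in control measures. Their hybridization controls were dimmer (12.09 to 12.26 log2 against 12.40 to 12.79), their 28S ribosomal RNA signals were lower (11.04 to 11.89 log2 against 12.08 to 12.79, without overlap), and the log2 ratio of 3′ to 5′ probe sets of the poly-A spikes was 0.69, 1.59 and 0.66 against 0.37 to 0.67 later. The part of the 28S signal in the results below was not tested.

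Most of these genes were highest in the newborn. When the mean of days 7, 14 and 21 was set against day 0, 26 of the 59 tested genes fell and 0 rose (limma on log2 signals, Benjamini-Hochberg adjusted p under 0.05 over all 14399 probe sets tested). Over all 5296 genes tested, 12.7% fell and 11.4% rose by the same rule. The share of these factors that fell was 44.1%. By family, 7 of 10 SNRP, 6 of 10 SR, 3 of 7 SF3 and 8 of 17 hnRNP genes fell. In the LSM and PRPF families 1 of 6 (16.7%) and 1 of 9 (11.1%) did, near the share of all genes. Differences between families were not tested.

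The median change of the 59 genes was -0.49 log2, against -0.03 over all genes tested, and their changes ran from -1.36 for SRSF1 to 0.17 for LSM12. In the mean, 54 of the 59 were lower after day 0 (91.5%, against 52.8% of all genes). For 21 of the 59 genes every later array was below every day 0 array, against 9.88% of all genes. No gene of the set had all its later arrays above day 0, against 424 of all 5296 genes tested. The mean deviation of the set from its own 12-array level was 0.46, 0.32 and 0.20 on the day 0 arrays and between -0.22 and -0.01 on the 9 later arrays. Without day 0 replicate 1, or without day 0 replicate 2, 14 genes fell. With the poly-A ratio as a covariate, 9 fell, with a median change of -0.47 log2. The share of all genes that fell in these omissions and with this covariate is not given here. These counts therefore cannot be set against the 12.7% of all genes in the main fit. When arrays were scaled on the hybridization controls instead, the median of all probe sets tested moved from 0.01 to -0.34 log2 and that of the 59 genes to -0.84. On that scale all 59, SF3B1 and LSM12 included, were lower in the mean and 46 fell: 9 SNRP, 10 SR, 5 SF3, 13 hnRNP, 3 LSM and 6 PRPF genes. Of all 14399 probe sets tested, 3617 fell and 623 rose on that scale, against 1262 and 1560 on the deposited scale. These count every probe set, whereas the 46 count 1 per gene, and a share of all genes on that scale is not given here. No gene of the set rose under any of these settings.

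**Figure D1:**
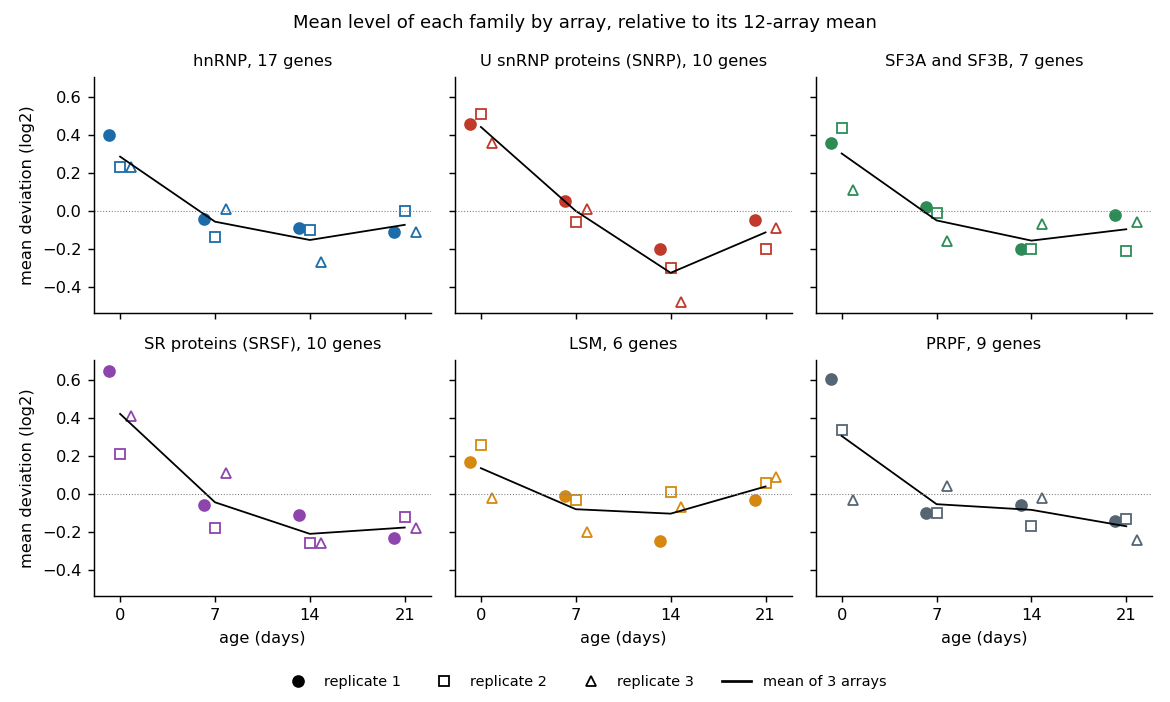
Mean deviation of the genes of each family from their own 12-array mean (log2, y axis) for each array against age in days (x axis), with marker shapes for replicates and a line through the mean of 3 arrays. The SNRP panel shows 0.46, 0.51 and 0.36 at day 0 and at most 0.05 later, while the LSM values at day 0 (-0.02 to 0.26) overlap the later ones (-0.25 to 0.09).

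The SNRP genes encode the Sm ring shared by the spliceosomal snRNPs and the specific proteins of the U1 and U2 particles. All 10 were lower in the mean after day 0, with a median change of -0.57 log2. The 7 that fell were SNRPD1, SNRPD3, SNRPB, SNRPF and SNRPG of the Sm ring, SNRPA of U1 and SNRPA1 of U2. SNRPD1 had signals of 5582.4, 3299.0 and 3210.3 at day 0, 2530.2, 2532.4 and 2370.4 at day 7, 1679.5, 1369.2 and 956.1 at day 14, and 1605.4, 1565.5 and 1626.8 at day 21. Every later array lay below the lowest newborn, and day 0 replicate 1 was the brightest of all. Its day 0 level was 2.26-fold the later level (-1.17 ± 0.19 log2, SE, n = 3 against 9, limma adjusted p = 0.00125).

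SNRPA, the U1 protein that binds a stem-loop of U1 RNA, had signals of 1288.0, 1401.7 and 1239.6 at day 0. They were 860.8, 702.4 and 725.3 at day 7, 628.9, 458.4 and 427.8 at day 14, and 841.1, 703.8 and 709.0 at day 21. The newborn arrays were close together and above all others, and the lowest arrays were those of day 14. The change was -0.99 ± 0.15 log2 (limma adjusted p = 0.00088). SNRPF had 398.7, 486.6 and 456.5 at day 0, 287.0, 290.9 and 273.6 at day 7, 293.1, 211.5 and 202.7 at day 14, and 403.5, 355.7 and 281.9 at day 21. One day 21 array reached the newborn range, so the groups overlapped, and the change was -0.66 ± 0.17 log2 (limma adjusted p = 0.0184).

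The other SNRP genes that fell changed by -0.62 (SNRPD3), -0.57 (SNRPB), -0.57 (SNRPG) and -0.56 (SNRPA1) log2. SNRPB encodes the SmB proteins, and its signals were 2762.3 to 3226.8 at day 0 and 1737.8 to 2338.3 later, without overlap. SNRPB2 (-0.37, the second U2 protein), SNRPC (-0.29, a U1 protein) and SNRPN (-0.10, a relative of SNRPB from an imprinted locus) did not pass the test. SNRPB and SNRPN are close relatives, and their probe sequences were not compared here. Without day 0 replicate 1, SNRPA1 and SNRPG were no longer past the threshold (adjusted p 0.0713 and 0.144), and without day 0 replicate 2 this held for SNRPD3, SNRPF and SNRPG (0.0573 to 0.134). SNRPG was also lost without each of 7 later arrays (adjusted p 0.051 to 0.0691): day 7 replicates 2 and 3, day 14 replicates 1, 2 and 3, and day 21 replicates 1 and 2.

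The SF3A and SF3B proteins form the core of the mature U2 snRNP and hold it on the branch point. SF3B2, SF3A3 and SF3B4 fell, and the largest subunit, SF3B1, did not pass the test. SF3B2 had 1119.1, 1176.8 and 1180.6 at day 0, 652.9, 810.4 and 822.8 at day 7, 553.7, 700.9 and 736.2 at day 14, and 735.6, 728.1 and 626.7 at day 21. All 9 later arrays were below the 3 newborn arrays, which lay close together, and the change was -0.72 ± 0.14 log2 (limma adjusted p = 0.00399). SF3B1, which contacts the branch-point helix, had 4049.9, 3418.3 and 3774.6 at day 0, 3999.7, 3943.0 and 3892.0 at day 7, 3741.0, 3440.6 and 3774.4 at day 14, and 3490.2, 3892.0 and 3651.3 at day 21. Its groups overlapped throughout, and its change was 0.01 ± 0.10 log2 (adjusted p = 0.976); a second, dimmer SF3B1 probe set gave 0.61 ± 0.22 (adjusted p = 0.064).

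SF3A3 changed by -0.69 ± 0.17 log2, and SF3B4, which binds upstream of the branch point, by -0.56 ± 0.14. SF3A1 (-0.53 ± 0.19, adjusted p = 0.0701), SF3B6 (-0.23), the branch-point protein also known as p14, and SF3B5 (-0.11) did not pass the test. SF3A3 and SF3B4 were no longer past the threshold without day 0 replicate 1 (adjusted p 0.058 to 0.0599) or without day 0 replicate 2 (0.0573 to 0.0623).

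The SR proteins bind exonic enhancers through their RNA recognition motifs and recruit spliceosome components through their serine/arginine-rich tails. All 10 tested SR genes were lower in the mean after day 0 by their brightest probe set, and SRSF1, SRSF2, SRSF7, SRSF5, SRSF10 and SRSF4 fell. SRSF2, a nuclear speckle protein, had 9844.0, 5845.8 and 7960.5 at day 0, 4837.2, 4617.6 and 5461.1 at day 7, 4439.3, 3714.8 and 3531.8 at day 14, and 4423.3, 4969.9 and 4582.3 at day 21. The newborn arrays were spread but all above the later ones, and the change was -0.79 ± 0.15 log2 (limma adjusted p = 0.00317). SRSF7, which shuttles between nucleus and cytoplasm and also acts in mRNA export, had 3467.8, 2563.0 and 2718.7 at day 0, 2091.3, 2255.5 and 2307.9 at day 7, 1749.2, 1560.4 and 1311.7 at day 14, and 1572.8, 1535.4 and 1735.7 at day 21. Day 7 lay between the newborn and the oldest arrays with no overlap on either side, and the change over the later ages was -0.71 ± 0.13 log2 (limma adjusted p = 0.00319).

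SRSF1, the founding SR protein, had the largest difference of the whole set and also a wide spread. Its signals were 10850.7, 4731.4 and 10501.4 at day 0, 4731.6, 1443.5 and 5531.1 at day 7, 3710.2, 3284.1 and 2494.3 at day 14, and 3573.1, 3189.2 and 2413.3 at day 21. Day 0 replicate 2 lay within the day 7 range, and day 7 replicate 2 was the lowest array of all. The change was -1.36 ± 0.35 log2 (limma adjusted p = 0.0171), and it missed the threshold when newborn replicate 1 (-1.16, adjusted p = 0.0795) or newborn replicate 3 (-1.18, adjusted p = 0.0659) was left out, within a range of 0.00166 to 0.0825 over its alternatives. A second SRSF1 probe set had 2944.9, 3059.2 and 2270.7 at day 0 and 1500.0 to 2541.3 later. It changed by -0.60 ± 0.14 log2 (limma adjusted p = 0.0104), a call lost without day 0 replicate 2. The order of arrays differed between the SRSF1 probe sets. In the second, day 0 replicate 2 was the highest newborn array and day 7 replicate 2 (2541.3) the highest later array. In the third and dimmest, day 0 replicate 2 (847.9) was the highest newborn and day 7 replicate 2 (1469.2) the highest array of all.

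SRSF5, SRSF10 and SRSF4 changed by -0.67, -0.56 and -0.49 log2, each with every later array below day 0. SRSF5 signals were 1076.0 to 1374.5 at day 0 and 594.6 to 1054.9 later, and SRSF4 signals were 1741.9 to 1998.9 and 1159.9 to 1517.1. SRSF9 (-0.45), SRSF3 (-0.39, adjusted p = 0.0774), which also acts in polyadenylation and export, SRSF6 (-0.19) and SRSF11 (-0.10) did not pass by their brightest probe set. Without day 0 replicate 1, SRSF5 and SRSF10 were not past the threshold, and without day 0 replicate 2 SRSF4, SRSF5 and SRSF10 were not (adjusted p 0.0503 to 0.0848).

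**Figure D2:**
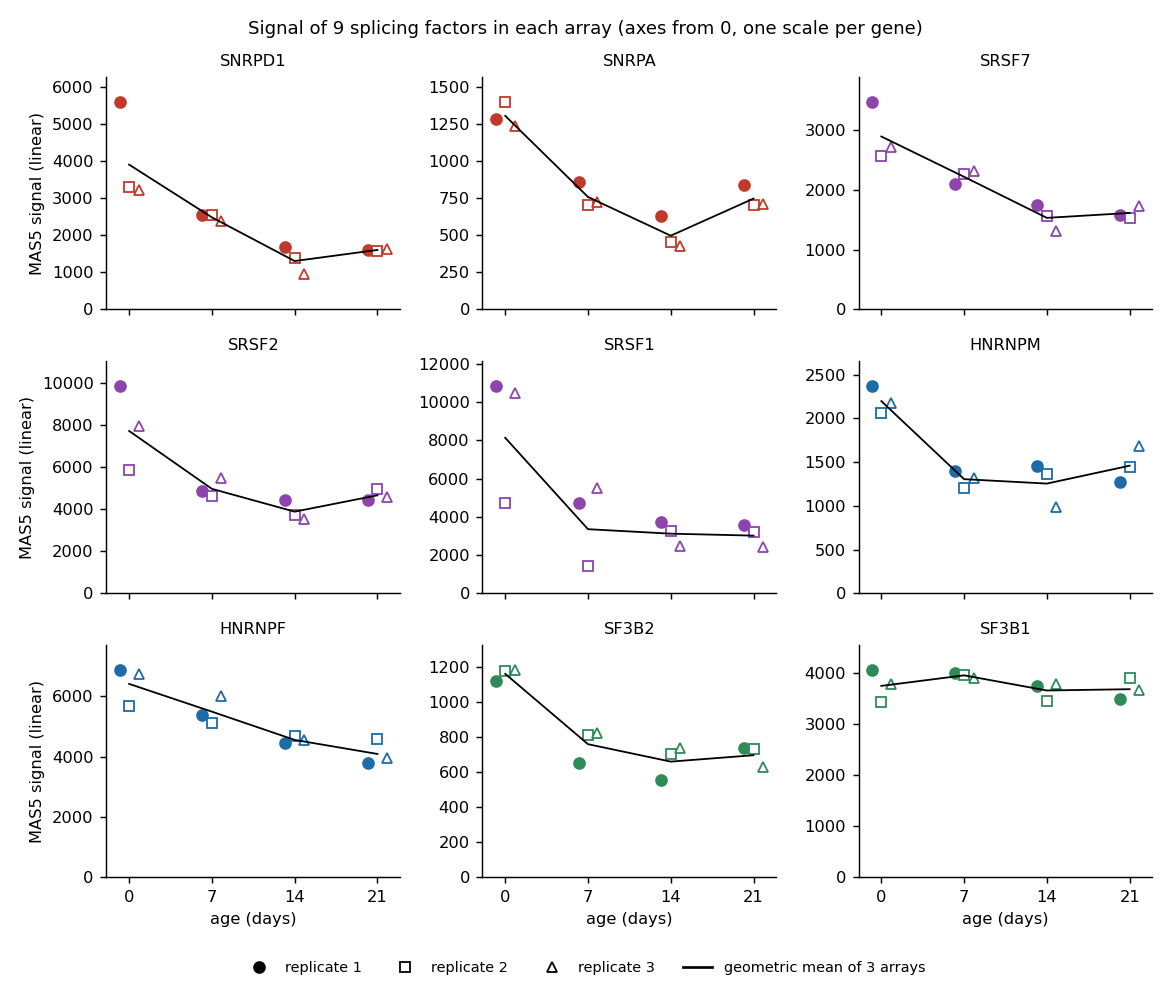
Linear MAS5 signal (y axis, from 0, a separate scale for each gene) of 9 splicing factors against age in days (x axis), with 1 point per array, marker shapes for replicates and a line through the geometric mean of 3 arrays. SNRPD1, SNRPA, SRSF7, SRSF2, HNRNPM and SF3B2 have all later arrays below the 3 newborn arrays, SRSF1 and HNRNPF overlap, and SF3B1 lies between 3418.3 and 4049.9 at all ages.

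The hnRNPs coat nascent transcripts and act in splicing, export and stability. Of the 17, 8 fell: HNRNPM, HNRNPAB, HNRNPA1, HNRNPH3, HNRNPR, HNRNPC, HNRNPD and HNRNPF, with changes from -0.72 to -0.46 log2. HNRNPM, which binds GU-rich sequence, had 2372.0, 2057.3 and 2177.9 at day 0, 1398.7, 1209.2 and 1316.7 at day 7, 1460.1, 1365.2 and 992.4 at day 14, and 1274.3, 1446.7 and 1687.7 at day 21. The drop was already present at day 7, the groups did not overlap, and the change was -0.72 ± 0.15 log2 (limma adjusted p = 0.00496). HNRNPF, which binds G-rich tracts, had 6869.3, 5686.9 and 6734.3 at day 0, 5388.4, 5101.3 and 6011.7 at day 7, 4451.1, 4674.6 and 4532.4 at day 14, and 3789.4, 4565.4 and 3942.9 at day 21. Day 7 overlapped the newborn range and the 6 oldest arrays lay below it, with a change of -0.46 ± 0.11 log2 over the later ages (limma adjusted p = 0.0125).

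HNRNPAB, an A/B-type hnRNP, had 3776.1, 3174.6 and 2294.1 at day 0 and 1575.8 to 2232.0 later, without overlap, and changed by -0.70 ± 0.15 log2 (limma adjusted p = 0.00557). HNRNPA1, the classic antagonist of SR proteins at exons, had 4474.8, 5152.8 and 4003.6 at day 0 and 2163.0 to 4280.3 later, where day 7 replicate 2 alone reached the newborn range. It changed by -0.62 ± 0.15 log2 (limma adjusted p = 0.0125). HNRNPC, which binds uridine tracts, and HNRNPD, which binds AU-rich elements and is linked to mRNA decay, changed by -0.53 and -0.49 log2. Averaging the probe sets of a gene ended the calls of HNRNPR (-0.25 ± 0.15 log2, adjusted p = 0.272, the highest over its alternatives, from 0.00145) and HNRNPD (-0.27 ± 0.11, adjusted p = 0.0995, in a range of 0.00133 to 0.17). HNRNPC, HNRNPH3 and HNRNPR were not past the threshold without day 0 replicate 1 (adjusted p 0.0544 to 0.0643), nor were HNRNPA1, HNRNPD and HNRNPH3 without day 0 replicate 2 (0.0556 to 0.0926).

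The other 9 hnRNP genes did not pass the test. HNRNPL, a binder of CA repeats, changed by -0.62 ± 0.38 log2 with signals of 1175.5 to 1932.2 at day 0 and 496.6 to 2125.6 later, a wide overlap. HNRNPA2B1, a close relative of HNRNPA1, had 12031.1 to 13967.5 at day 0 and 10971.5 to 12846.5 later, a change of -0.11 ± 0.09 log2. HNRNPA3 (-0.38, adjusted p = 0.0506) and HNRNPK (-0.20), a poly-C binder, had every later array below day 0 without passing. A second HNRNPK probe set did fall (-0.35 ± 0.11 log2, limma adjusted p = 0.0401), a call lost in 10 of the 12 single-array omissions. HNRNPH1 (-0.23), HNRNPUL1 (-0.21), HNRNPDL (-0.03), HNRNPU (0.01) and HNRNPH2 (0.06) make up the rest.

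The LSM genes encode Sm-like proteins, some of which form a ring on U6 RNA in the nucleus and a related ring in the decapping of mRNA. Of the 6, LSM7 fell, with signals of 764.4, 757.6 and 564.1 at day 0, 422.3, 460.2 and 392.4 at day 7, 323.6, 493.2 and 514.5 at day 14, and 507.6, 504.2 and 450.4 at day 21. Every later array was below the newborn arrays, and the change was -0.62 ± 0.17 log2 (limma adjusted p = 0.0231). It missed the threshold when newborn replicate 1 (-0.55, adjusted p = 0.0823) or newborn replicate 2 (-0.55, adjusted p = 0.0961) was left out, within a range of 0.0029 to 0.186 over its 22 alternatives. Its ring partners LSM6 (-0.44), LSM3 (-0.15) and LSM2 (-0.14) did not pass, nor did LSM14A (0.07), a P-body protein, or LSM12 (0.17).

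The PRPF genes encode proteins of the U4/U6.U5 tri-snRNP and of the complexes that activate the spliceosome. All 9 were lower in the mean after day 0, with a median of -0.46 log2, and on the deposited scale only PRPF19 passed the test. An unadjusted limma p under 0.05 was reached by 6 of the 9, all lower, against 2059 of all 5296 genes tested (1103 lower). PRPF19, the ubiquitin ligase at the centre of its own spliceosome-activating complex, had 1364.0, 1214.0 and 864.8 at day 0, 994.4, 785.6 and 942.7 at day 7, 794.3, 746.3 and 554.2 at day 14, and 677.6, 746.7 and 737.3 at day 21. Day 0 replicate 3 lay within the day 7 range, and the change was -0.56 ± 0.17 log2 (limma adjusted p = 0.034). The call was lost without any of 5 arrays: day 0 replicate 1 (-0.42), day 0 replicate 2 (-0.50), day 7 replicate 2 (-0.52), day 14 replicate 3 (-0.51) and day 21 replicate 1 (-0.54), with adjusted p from 0.0508 to 0.141 in these omissions and from 0.00397 to 0.276 over all alternatives.

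PRPF3, a U4/U6 protein, had the largest difference of this family without passing the test (-0.74 ± 0.26 log2, adjusted p = 0.0595). Its newborn signals were 1543.1, 965.5 and 492.1 and its later ones 451.5 to 623.3, so day 0 replicate 3 lay among the older animals. PRPF31 (-0.60), which binds U4, PRPF4 (-0.50), the partner of PRPF3, the kinase PRPF4B (-0.46, adjusted p = 0.0602) and PRPF38A (-0.40) did not pass. PRPF18 (-0.19), a second-step factor, PRPF38B (-0.18) and PRPF39 (-0.02), a U1-associated protein, also did not. The mean deviation of the PRPF family on the 3 day 0 arrays was 0.61, 0.34 and -0.03 log2.

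**Figure D3:**
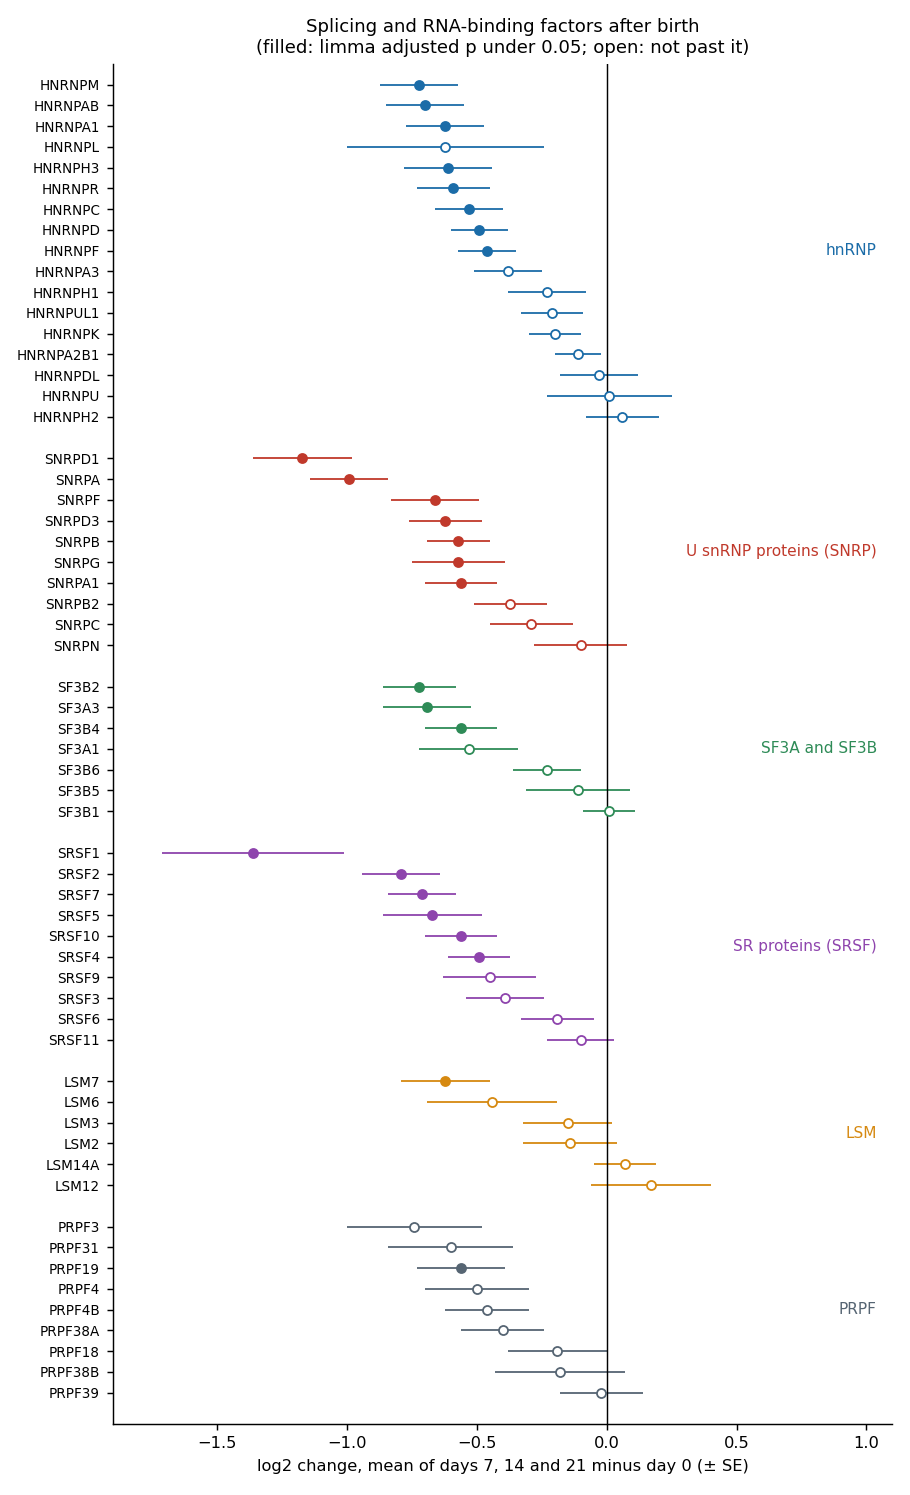
Log2 change of each of the 59 tested genes (x axis, mean of days 7, 14 and 21 minus day 0, bars are ± 1 SE from the limma fit), grouped by family, with filled points for adjusted p under 0.05. The filled points run from -1.36 (SRSF1) to -0.46 (HNRNPF), all to the left of 0, and the rightmost open point is LSM12 at 0.17.

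The comparisons by single age all use the same 3 newborn arrays and so are not independent of each other or of the result above. At day 7, 7 of the 59 genes had fallen (11.9%, against 5.21% of all genes tested) and 0 had risen (6.51% of all genes): HNRNPM (-0.75), SF3B2 (-0.61), SNRPA (-0.78), SNRPB (-0.57), SRSF2 (-0.64), SRSF4 (-0.57) and SRSF5 (-0.84 log2). The median change at day 7 was -0.38 log2, 55 genes were lower in the mean (93.2%, against 53% of all genes), and 26 genes had all day 7 arrays below day 0, against 17% of all genes. At day 21, 17 had fallen (28.8%, against 7.1%) and 0 had risen (7.36% of all genes). The median change was -0.49 log2, 53 genes were lower in the mean (89.8%, against 51.5%) and 31 had no overlap (17% of all genes). These 17 were HNRNPA1, HNRNPAB, HNRNPC, HNRNPF, HNRNPM and HNRNPR, SNRPA, SNRPA1, SNRPB and SNRPD1, SF3A3 and SF3B2, and SRSF1, SRSF2, SRSF4, SRSF7 and SRSF10. No LSM or PRPF gene was among them, although 1 of 6 and 5 of 9 had an unadjusted p under 0.05 in limma, all lower. Over all 5296 genes tested, 1683 had an unadjusted p under 0.05 at day 21, 888 of them lower.

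SNRPD1 (-1.28 ± 0.23 log2, limma adjusted p = 0.00444), SRSF7 (-0.84 ± 0.16, adjusted p = 0.00658) and HNRNPF (-0.65 ± 0.14, adjusted p = 0.00944) had the lowest p-values at day 21, and these 3 calls held under all 22 alternatives. Omitting day 0 replicate 1 left 6 genes that fell at day 21, and omitting day 21 replicates 1, 2 or 3 left 5, 8 or 6. For day 7, omitting day 0 replicates 1, 2 or 3 gave 1, 2 or 13 genes, and omitting day 7 replicates 1, 2 or 3 gave 1, 0 or 1. The share of all genes called in these omissions is not given here.

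After day 7 no gene of the set passed the test from one age to the next. Between day 7 and day 14, 0 of the 59 genes passed the limma test in either direction (0% of all genes tested). An unadjusted p under 0.05 was reached by 7, all lower, against 367 of all 5296 genes tested (219 lower). The median change of the 59 was -0.09 log2, and 41 were lower in the mean (69.5%, against 52.5% of all genes). The 7 were SNRPD1 (-0.93 ± 0.23 log2, limma adjusted p = 0.606), SNRPA (-0.61), SRSF7 (-0.53), SNRPG (-0.52), SRSF3 (-0.47), HNRNPR (-0.42) and SF3B6 (-0.34). The SNRPD1 difference from day 7 to day 14 was larger than that from day 0 to day 7 (-0.65 log2); whether the 2 steps differ was not tested. Between day 14 and day 21, again 0 passed (0% of all genes), the median change was 0.08 log2, and 18 were lower in the mean (30.5%, against 45.2% of all genes). Here 2 of the 59 genes had an unadjusted p under 0.05, SNRPA (0.59 ± 0.18 log2) and SNRPF (0.56 ± 0.21), both higher at day 21. An unadjusted p under 0.05 was found for 155 of all 5296 genes tested, 72 of them higher.

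The highest of the 4 age means was that of day 0 for 50 of the 59 genes (84.7%, against 40.7% of all genes tested), and the lowest was that of day 14 for 31 (52.5%, against 23.8%). The 9 genes with another highest age were HNRNPDL, HNRNPU, LSM3, LSM14A and PRPF39 (day 21), HNRNPH2, SF3B1 and SNRPN (day 7) and LSM12 (day 14). LSM12 alone had its lowest mean at day 0. By the F test over the 4 ages, 12 of the 59 genes differed (11.2% of all genes did): SNRPA, SNRPD1, SNRPD3, SNRPB, SNRPF, SRSF7, SRSF2, HNRNPAB, HNRNPF, HNRNPM, HNRNPR and SF3B2. Omitting day 0 replicates 1 or 2 brought this count to 3 or 5. Omitting the first replicate of day 7 or of day 21 brought it to 6, and omitting replicates 1 or 3 of day 14 or replicate 3 of day 21 brought it to 7. How many of all genes passed the F test in these omissions is not given here.

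Several genes have more than 1 probe set, and these did not always give the same answer. Of the 19 genes with several tested probe sets, 9 had them all in 1 direction in the later ages against day 0, 8 had probe sets that differed in their call, and 1, SRSF6, had calls in opposite directions. Over all genes, 8 of 1396 with several tested probe sets had opposite calls. Of all 14399 probe sets tested, 8.76% fell and 10.8% rose in that comparison. SRSF10 had 3 of 4 probe sets that fell (-0.75, -0.74 and -0.56 log2) and 1 at 0.02. For SNRPG, the brightest probe set fell by 0.57 and the other stood at 0.49 ± 0.20 log2 (adjusted p = 0.102); their mean changed by -0.04 ± 0.16 (adjusted p = 0.888, the highest over its alternatives, from 0.00164). The second probe sets of HNRNPR (0.10 ± 0.18), HNRNPD (-0.05 ± 0.15) and HNRNPC (-0.41 ± 0.21) did not pass where the brightest fell. The third SRSF1 probe set stood at -0.59 ± 0.32 (adjusted p = 0.215), and the mean of the 3 SRSF1 probe sets changed by -0.85 ± 0.14, smaller than the -1.36 of the brightest. Where no probe set was called, directions differed for HNRNPA2B1 (-0.11, 0.36 and 0.48), LSM6 (-0.44 to 0.37), SRSF11 (-0.10 to 0.51), SNRPN (-0.10 and 0.14), LSM12 (0.17 and -0.11) and HNRNPH2 (0.06 and -0.03).

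SRSF6, an SR protein of the same type as SRSF4 and SRSF5, had 6 tested probe sets. The probe set Ssc.9241.2.A1_at, the brightest, had 1937.7, 1317.1 and 1820.9 at day 0 and 1245.4 to 1794.5 later, and did not pass the test (-0.19 ± 0.14 log2). Ssc.9241.1.A1_at fell from 1331.8, 879.9 and 1202.5 to between 533.8 and 900.9 (-0.74 ± 0.17, limma adjusted p = 0.0107), and Ssc.9241.2.A1_a_at from 676.9, 443.5 and 591.3 to between 255.5 and 408.5 (-0.66 ± 0.17, adjusted p = 0.0165). Both calls were lost without day 0 replicate 1, with adjusted p up to 0.0517 and 0.0765 over all alternatives. Ssc.30743.1.S1_at rose from 378.6, 524.8 and 372.5 to between 622.8 and 800.7, with no overlap (0.78 ± 0.15, limma adjusted p = 0.0036). Its call held in every single-array omission and was lost on the hybridization control scale (0.43, adjusted p = 0.0903, the highest of a range from 0.00245). The remaining probe sets, Ssc.17252.1.S1_at (-0.36) and Ssc.7881.1.A1_at (0.07), did not pass. Which part of the SRSF6 transcript each probe set reads was not analysed here, so the level of SRSF6 as a gene has no single direction in these data.

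**Figure D4:**
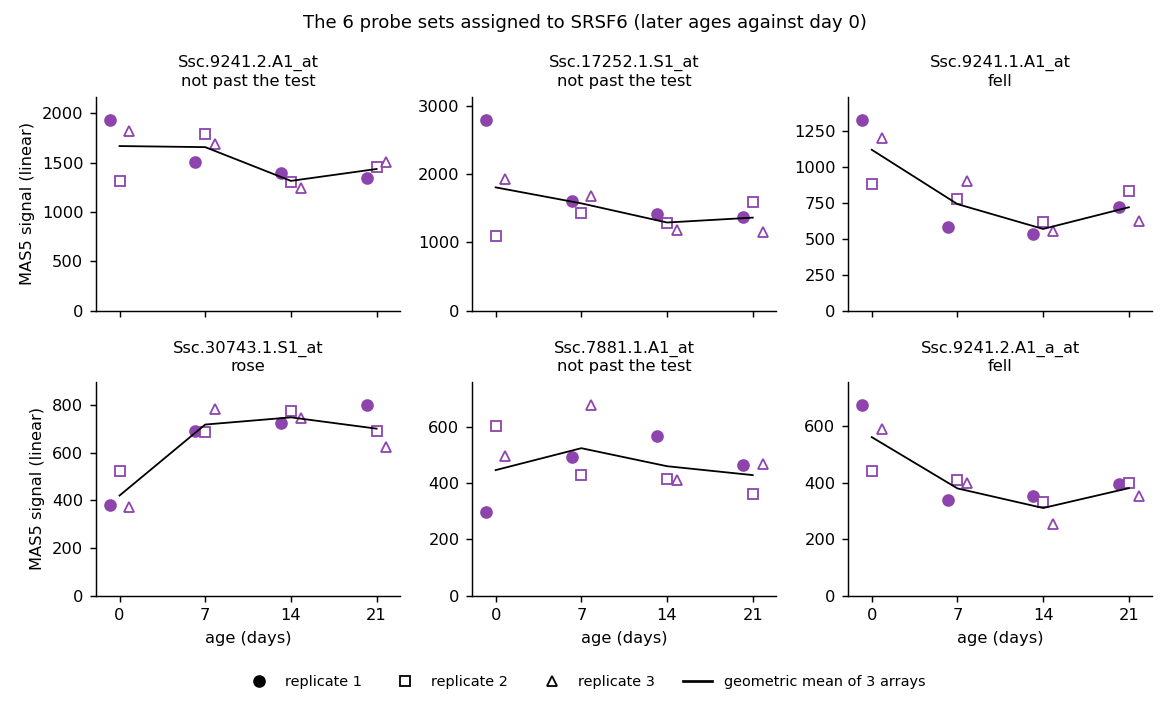
Linear MAS5 signal (y axis, from 0, a separate scale for each panel) of the 6 probe sets assigned to SRSF6 against age in days (x axis), with 1 point per array, marker shapes for replicates and a line through the geometric mean of 3 arrays. Ssc.30743.1.S1_at goes from 372.5 to 524.8 at day 0 to 622.8 to 800.7 later, while Ssc.9241.1.A1_at goes from 879.9 to 1331.8 at day 0 to 533.8 to 900.9.

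Other genes of the same pathway were followed in lists of known function. In the later ages against day 0, 12.7% of all 5296 genes tested fell and 11.4% rose, and 2059 had an unadjusted p under 0.05. On the hybridization control scale, 3617 of all 14399 probe sets tested fell and 623 rose. Among 37 other tested spliceosome proteins, 9 fell and 0 rose in the later ages against day 0, with a median of -0.19 log2; on the hybridization control scale 16 fell and the median was -0.54. The strongest were RBMX (-0.68, adjusted p = 0.00329), an RNA-binding relative of the hnRNPs, the helicase DDX39B (-0.85, 0.00384), RNPS1 (-0.58, 0.00419) and SNRNP40 of the U5 particle (-0.67, 0.00715). Among 25 other splicing regulators, 6 fell and 0 rose, with a median of -0.15 (13 and -0.50 on that scale). RBM3, a cold-inducible RNA-binding protein, showed the largest fall (-1.66 ± 0.17 log2, limma adjusted p = 0.000144), followed in order of p by TRA2B (-0.77), TRA2A (-0.78), both SR-like enhancer binders, and MATR3 (-0.52).

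The snRNP assembly genes encode proteins that modify Sm proteins and load their rings onto snRNA. Of 11 tested snRNP assembly genes, 3 fell and 0 rose, all 11 were lower in the mean, and the median was -0.39 log2 (8 and -0.74 on the hybridization control scale). The 3 were PRMT5 (-0.96, adjusted p = 0.000743), the methyltransferase that modifies Sm proteins, and its partners WDR77 (-0.65, 0.00539) and CLNS1A (-0.39, 0.0436). Of 16 exon junction and export genes, 5 fell and 0 rose, with a median of -0.38 (12 and -0.73 on that scale), led by the junction core MAGOH (-0.79, 0.00278), RBM8A (-0.63, 0.00539) and EIF4A3 (-0.75, 0.00543) and by SMG5 of nonsense-mediated decay (-0.78, 0.0205).

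Kinases and phosphatases that act on SR proteins set where those proteins reside and how they bind. Of 8 tested, 0 fell in limma (1 lower at an unadjusted p under 0.05) and 1 rose, with a median of -0.01 log2. The 1 of 8 that rose is near the 11.4% of all genes tested that rose. On the hybridization control scale 4 of the 8 fell, 0 rose and their median was -0.36. CLK1, a kinase that phosphorylates SR proteins in the nucleus, rose by 0.65 ± 0.18 log2 (limma adjusted p = 0.0234). The CLK1 call was lost with the poly-A ratio as a covariate (0.34, adjusted p = 0.368), on the hybridization control scale (0.30, 0.326), without day 0 replicate 2 (0.45, 0.137) and without day 0 replicate 3 (0.66, 0.0502), and its lowest adjusted p over the alternatives was 0.0127. Of 6 tested decapping genes, none passed in limma and 1, DCP1A, had an unadjusted p under 0.05 (-0.45 log2, adjusted p = 0.126), with a median of -0.03 (-0.38 with 1 gene that fell on the hybridization control scale).

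Some markers of other cell types and of dividing cells also moved between day 0 and the later ages, where 12.7% of all genes tested fell and 11.4% rose. Of 16 tested proliferation markers, 10 rose and 0 fell. Their summed signal went from 3739 to 6626 at day 0 to 5952 to 18590 later. Against day 0 this was opposite in direction to the splicing factors, but between the later ages it was not. From day 7 to day 14 all 16 markers and 41 of the 59 splicing factors were lower in the mean (52.5% of all genes). From day 14 to day 21, 14 of the 16 markers and 41 of the 59 factors were higher (2903 of all 5296 genes). None passed the limma test in either step. Of 9 endothelial markers, 5 rose and 1 fell, with summed signals of 5578 to 6462 at day 0 and 6677 to 10380 later. Of 14 muscle markers, 8 rose and 1, DES, fell. On the hybridization control scale 3 of the muscle, 9 of the proliferation and 3 of the endothelial markers rose. Of 7 macrophage markers 2 rose, of 2 lymphocyte markers 1 rose, and of 3 erythroid markers 1 rose and 1 fell. None of the 7 fibroblast, 3 adipocyte or 2 nerve markers passed the limma test, and 1 nerve marker had an unadjusted p under 0.05. The part of these cell types in the levels of the splicing factors was not tested.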

How the data were processed

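Total RNA of 12 skeletal muscle samples (4 ages, 3 biological replicates each, per the labels) was isolated with Trizol, and 6 ug went into each biotinylated cRNA, per the labels' protocols. The authors deposited a linear signal intensity for every probe set and array; the submitters' processing notes name MAS5, whose version and settings are not given in the sources used here. Of 24123 probe sets, 124 controls and the lowest 40% by mean log2 signal (limit 90.3) were left out, which left 14399. The annotation gave 1 gene symbol to 10099 probe sets, several to 198 and none to 13826; all 60 members matched RefSeq by Entrez ID with the same symbol.

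The 4 age means were estimated from log2 signals of the 12 arrays together (limma 3.58.1 under R 4.3.3), followed by contrasts between ages, an F test and eBayes with a variance trend, and p-values were adjusted by Benjamini-Hochberg over all 14399 probe sets. The fitting code was tested on simulated data. A gene is called where its adjusted p is under 0.05. P-values measure the spread between samples labelled as biological replicates, whose litters are not given, and 3 arrays per age limit the precision. The gene families, the lists and the tests were chosen with earlier results of these data known. Every family member past the threshold in any test is named, as is the member of each family with the largest difference at day 21, up to 4 genes of each other list in order of p, and probe sets that disagree.

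Alternatives were no filter and a filter at 60%, quantile normalization, scaling on 27 hybridization control probe sets, an offset of 29.7 (the 20th percentile of all signals) before log2, eBayes without the trend, array weights, a block for the replicate number, a covariate for the poly-A 3′/5′ ratio, averaging the probe sets of a gene, and omitting single arrays in turn. Figures were drawn with matplotlib 3.10.9.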

Additional observations from a re-analysis of the deposited data

How the results depend on the processing

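No called change reversed under the 22 alternatives; of the members not called, the 5 that were higher in the mean (SF3B1 and LSM12 among them) were lower on the hybridization control scale. The count of members that rose was 0 under each alternative. Of the 26 members that fell in the later ages against day 0, 7 kept the call throughout (HNRNPF, HNRNPM, SF3B2, SNRPA, SNRPD1, SRSF2, SRSF7); at day 21 this held for 3 of 17 and at day 7 for 0 of 7. The following counts are in the order later ages, day 21, day 7 and F test, with 26, 17, 7 and 12 as reported. On the hybridization control scale they were 46, 40, 30 and 34. With array weights they were 17, 9, 4 and 6, and with the poly-A ratio as a covariate 9, 5, 1 and 3. Without a variance trend, day 21, day 7 and the F test gave 10, 3 and 4. Leaving out 1 array gave 14 to 30, 5 to 20, 0 to 13 and 3 to 13, and median changes of -0.57 to -0.39, -0.57 to -0.43 and -0.49 to -0.27 log2. No label says that a replicate number links arrays of different ages. Deviations of the 18 same-numbered pairs had a median correlation of -0.016 (-0.198 to 0.112). For the 36 other pairs it was 0.011 (-0.185 to 0.236). Litters are not given and each age has 3 arrays, so a pairing by number cannot be told from these values. With the replicate block, day 7 gave 3 and the F test 7. Shares of all genes under these alternatives are not given here. Whether the members lost calls more or less often than all genes therefore cannot be told from these counts. Where calls were lost, the cause was not tested. Signals near the filter limit, such as those of SRSF12, bound what can be seen of dim genes.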
